A study of Mus musculus with 11 samples.

Results

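The messenger RNAs of 8 secreted glycoproteins of the extracellular matrix are described in endothelial cells of mouse bone marrow. They are *Sparc*, *Sparcl1*, *Thbs1*, *Fn1*, *Mgp*, *Mmrn1*, *Mmrn2* and *Emilin1*, chosen by name from the 27179 rows of the count table, and all 8 were among the 11948 genes that had enough reads to be tested. The cells were CD31hi EMCNhi endothelial cells, a surface phenotype that defines type H capillaries in healthy bone and that does not by itself show a met vessel to be of that type. They were sorted as live cells negative for the blood cell markers CD45 and Ter-119. Wild-type BALB/c mice carried 4T1.2 cells, a syngeneic mammary carcinoma line with a tendency to colonise bone, labelled here with a red fluorescent protein. Burdened marrow was microdissected by that fluorescence into tumour-infiltrated areas (met, 3 libraries) and adjacent tumour-free areas (non-met, 6 libraries), and healthy age-matched BALB/c mice gave the control (2 libraries). No group carried an engineered allele or received a drug.

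Each library came from a pool, which for the burdened groups could, by the study's methods, be as small as a single mouse. Where a pool held more, its mice cannot be seen apart. The 4 burdened pools were the source of several libraries each. Met 1 shares pool 2 with non-met 2 and 6, met 2 shares pool 3 with non-met 3, met 3 shares pool 4 with non-met 4, and non-met 1 and 5 both come from pool 1. Libraries of one pool share animals, so the P values over libraries measure only the spread between these libraries, which may be technical. Total counts per library ran from 733342 (non-met 4) to 19539761 (control 1), and 3 reads, taken as the floor of detection, corresponded to between 0.154 and 4.09 CPM (counts per 1e6 counts). These floors cover counting error only. All 8 general endothelial markers, among them *Pecam1* (CD31), *Emcn* and *Cdh5*, were detected in every library, at a summed level of 6127 to 9292 CPM in control, 7395 to 12812 in non-met and 10300 to 12751 in met. The 17 stromal and osteolineage markers summed to 4260 to 10942 CPM in control, 1399 to 4809 in non-met and 547 to 3110 in met, with *Cxcl12* giving 66.7% of that sum and the osteoblast marker *Bglap* at 0 throughout. The 8 granulocyte markers, of which *S100a9* gave 50.04%, were all detected and summed to 77.8 to 359 CPM in control, 397 to 4797 in non-met and 35.3 to 204 in met, so that every non-met library lay above all others. Mitochondrial genes held 5.22% to 6.02% of the counts in control, 6.46% to 16.7% in non-met and 4.05% to 9.08% in met. Reads of the epithelial keratins *Krt8* and *Krt18* summed to at most 3.19 CPM in the controls and in non-met 1 and 2, and to 6.54 to 62.2 CPM in the other 7 libraries. In bulk libraries such as these, fewer cells of a type and less RNA per cell cannot be told apart.

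Matricellular proteins are secreted into the matrix but mainly tune how cells hold on to it, rather than bearing load. SPARC binds collagen and calcium, and SPARCL1 is its closest relative. Thrombospondin-1, encoded by *Thbs1*, restrains vessel growth through CD36 and can activate latent TGF-beta. Fibronectin, encoded by *Fn1*, is assembled by integrins into fibrils on which other matrix is laid down. MGP is a small protein that inhibits calcification once its glutamates are carboxylated. The multimerins and EMILIN1 form a further family: MMRN1 is stored in platelets and endothelium, MMRN2 is an endothelial protein that binds the receptors CD93 and CLEC14A, and EMILIN1 sits on elastic fibres and limits TGF-beta maturation.

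All 8 genes are protein-coding, and positions are given on GRCm38.p6, the patch release of the mm10 build used for counting. *Sparc* (Entrez 20692) lies at chr11:55394159-55420080 on the minus strand and *Sparcl1* (13602) at chr5:104079108-104114088 on the minus strand. *Thbs1* (21825) lies at chr2:118111876-118127133 on the plus strand, and *Fn1* (14268), with 46 exons the most divided of the set, at chr1:71585473-71653280 on the minus strand. *Mgp* (17313), the shortest with 599 counted exon bases, lies at chr6:136872435-136875823 on the minus strand. *Mmrn1* (70945) lies on the same chromosome at chr6:60944317-60989378 on the plus strand, *Mmrn2* (105450) at chr14:34375504-34404287 on the plus strand, and *Emilin1* (100952) at chr5:30913387-30921279 on the plus strand. Only *Sparcl1* had another annotated gene, the noncoding LOC330143, within its span, and whether counting used strand is not stated.

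The RefSeq promoter table of GRCm38.p6, which spans 250 bases before to 50 after each start, held 3 of the 8 members (*Sparc*, *Mmrn1* and *Emilin1*). The 2 printed here belong to the most abundant member and to the member that varied most between libraries, written 5′ to 3′ along the gene. Capitals mark GGAA, the core recognised by ETS factors, a family that includes the endothelial regulator ERG, or its reverse complement TTCC. The *Sparc* window is chr11:55420031-55420330 on the minus strand and the *Mmrn1* window is chr6:60944067-60944366 on the plus strand.
Sparc: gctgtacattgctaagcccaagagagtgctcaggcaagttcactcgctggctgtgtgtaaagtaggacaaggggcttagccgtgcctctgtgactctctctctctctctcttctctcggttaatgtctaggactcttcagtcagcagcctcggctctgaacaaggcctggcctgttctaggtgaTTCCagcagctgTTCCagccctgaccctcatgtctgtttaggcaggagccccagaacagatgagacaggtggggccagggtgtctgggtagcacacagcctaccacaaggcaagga
Mmrn1: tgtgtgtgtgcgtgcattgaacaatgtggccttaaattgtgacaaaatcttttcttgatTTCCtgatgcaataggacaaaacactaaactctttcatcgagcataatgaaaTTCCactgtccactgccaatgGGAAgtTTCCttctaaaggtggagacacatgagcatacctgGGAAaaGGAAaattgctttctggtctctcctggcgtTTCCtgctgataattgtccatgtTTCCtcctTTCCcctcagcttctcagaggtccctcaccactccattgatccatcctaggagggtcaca

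The *Sparc* window held 0 copies of GGAA on the written strand and 2 on the other, while the *Mmrn1* window held 3 and 6 and the *Emilin1* window 6 and 0. At least 1 copy on either strand is found in 96.0% of 32851 promoters of that length, so its presence does not set these genes apart. TATAAA (in 13.6% of promoters), GGGCGG (35.7%) and the AP-1 sequence TGANTCA (7.81%) were in none of the 3 windows on either strand. CCAAT (37.4%) occurred once in *Mmrn1* and once, on the other strand, in *Emilin1*. These matches describe letters only.

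Compared per length, *Sparc* was by far the most abundant of these transcripts. Its level, in RPKM (CPM divided by the counted exon length in kilobases), was 789 ± 228 (SD, n = 11 libraries), rank 38 among the 11948 genes tested, and it exceeded *Mgp*, the next gene in the order, in 11 of 11 libraries. *Mgp* (190 ± 139 RPKM), *Mmrn2* (177 ± 65.0) and *Sparcl1* (166 ± 91.7) could not be ordered beyond their spread, since *Mgp* was above *Mmrn2* in 5 libraries and *Mmrn2* above *Sparcl1* in 7 of 11. *Emilin1* followed at 93.0 ± 39.4 RPKM, below *Sparcl1* in 8 libraries and above the next gene in 10 of 11. *Mmrn1* (22.7 ± 26.1) and *Fn1* (19.96 ± 14.5) were close to each other, and *Thbs1* was lowest at 6.85 ± 9.03 RPKM, rank 7727. Together the 8 genes took 0.225% to 0.485% of the counts of a library, and *Sparc* alone gave 38.8% to 57.1% of those.

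**Figure D1:**
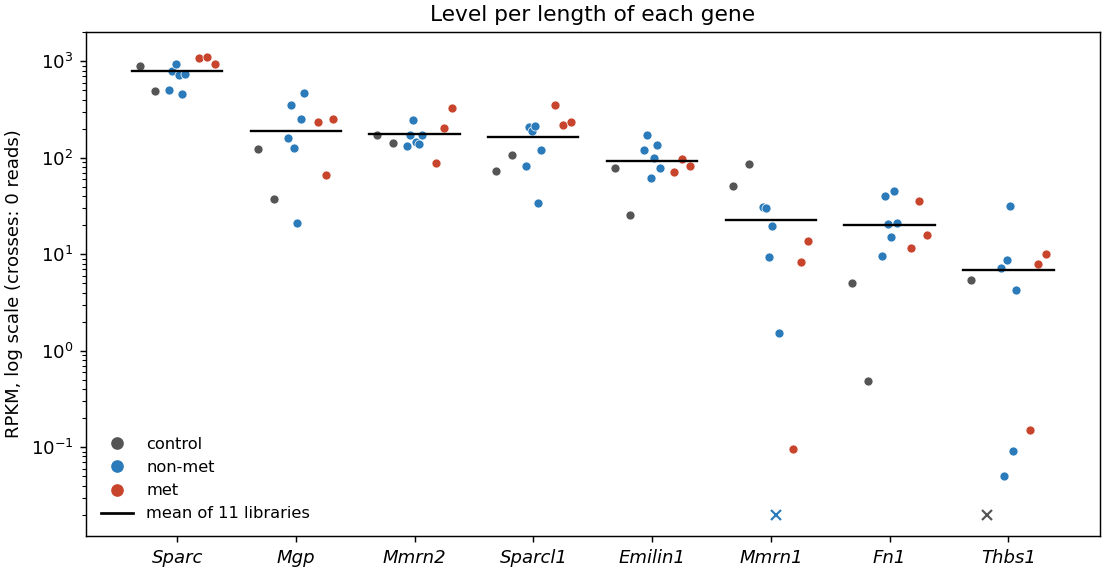
Level of each gene in RPKM on a log axis, 1 point per library coloured by group, with crosses for libraries with 0 reads and a black line at the mean of the 11 libraries. *Sparc* stands above the other 7 genes in the mean, while *Mmrn1*, *Fn1* and *Thbs1* spread widely, each with a lowest library under 1 RPKM.

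The members also differed in how steady they were from library to library. The SD of log2 CPM over the 11 libraries was 0.45 for *Sparc* and 0.50 for *Mmrn2*, and 16.4% and 25% of the 500 genes of nearest mean level had a smaller SD. *Mmrn1* had an SD of 3.30, above that of 95% of genes of like mean, and *Thbs1* one of 3.21, above that of 70.4%. *Sparcl1* (0.97) and *Fn1* (1.80) varied more than 87.6% and 80.8% of their like, and *Emilin1* (0.71) and *Mgp* (1.37) lay near the middle. The pools that gave 2 non-met libraries measure this spread without a difference of group. Their *Sparc* levels differed by 0.16 and 0.12 on the log2 scale and their *Mmrn2* levels by 0.071 and 0.0037, whereas *Thbs1* differed by 5.57 and 5.28 and *Mmrn1* by 8.64 and 4.24.

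**Figure D2:**
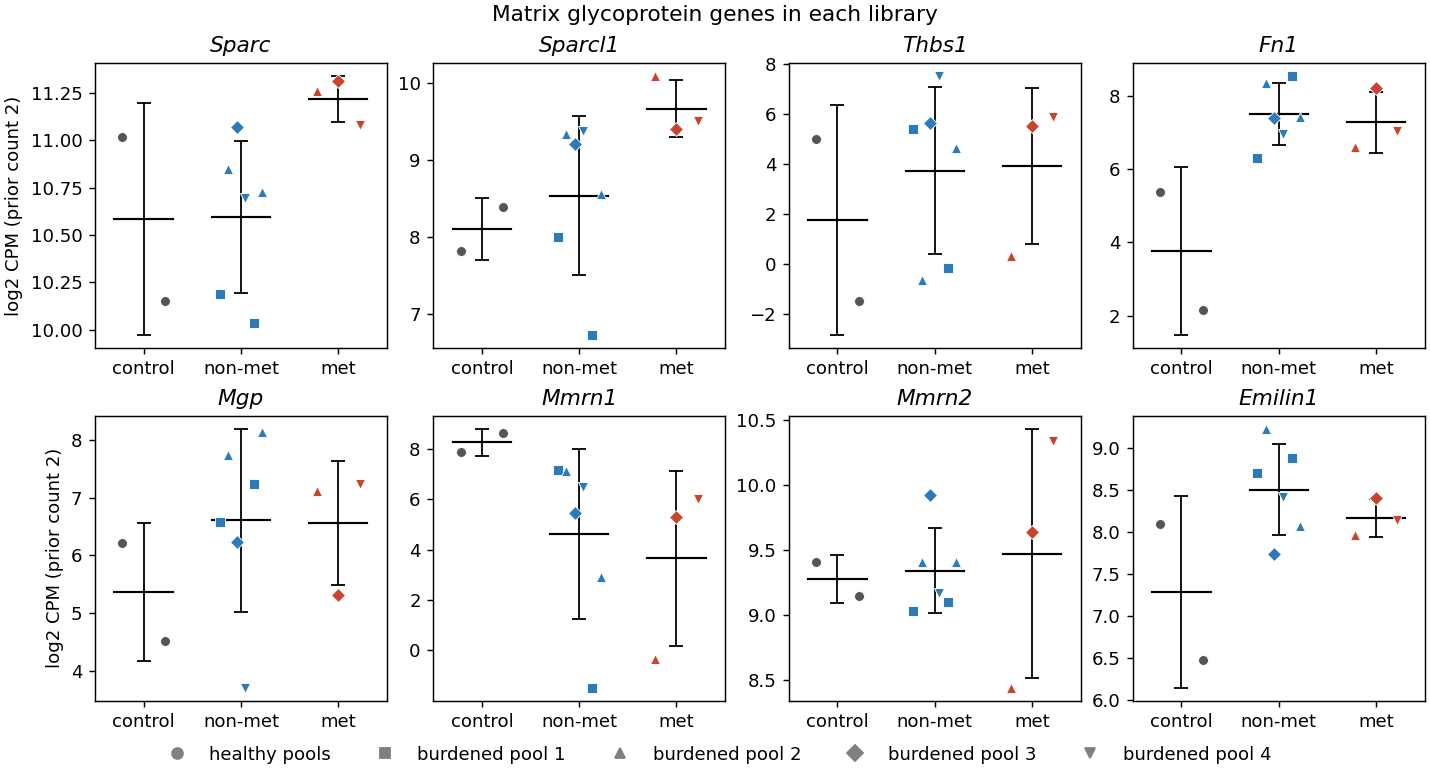
Log2 CPM (TMM-scaled, prior count 2) of the 8 genes in control, non-met and met, 1 point per library, with the shape giving the mouse pool, the horizontal line the group mean and the bar 1 SD. The 3 met libraries lie above all others for *Sparc* and *Sparcl1*, both controls lie below the other 9 libraries for *Fn1* and above them for *Mmrn1*.

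The first comparison asks which matrix genes differ between endothelium of infiltrated marrow and that of the neighbouring tumour-free marrow. *Sparc* and *Sparcl1* had higher values in met: mean CPM was 1.499 times that of non-met for *Sparc* and 1.89 times for *Sparcl1*, and in both every met library lay above every non-met library. None of the 8 genes passed the test with voomLmFit, a weighted linear model fitted to all genes with Benjamini-Hochberg adjustment (threshold 0.05), against 0.427% of all genes tested. The edgeR quasi-likelihood test, DESeq2 and limma-trend called 0 members as well, against 0.134%, 3.21% and 0.0167% of all genes. At an unadjusted P under 0.05 voomLmFit had 3 members (*Sparc*, *Sparcl1* and *Mmrn2*) against 7.24% of all genes. Groups that do not overlap, with met higher, were seen in 2 of 8 members and in 1.54% of all genes, and with met lower in 0 members and 0.444% of genes. The fitted differences of the 8 members had a median of 0.15 on the log2 scale, beside 0.08 over all genes, and 4 lay above 0 and 4 below.

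*Sparc*, the collagen-binding matricellular protein, measured 2458, 2543 and 2169 CPM in met 1 to 3. In non-met the lowest library had 1048, the median was 1679 and the highest, non-met 3, had 2153 CPM, so the gap between the groups was narrow. On the log2 scale the mean was 11.22 ± 0.12 (SD, n = 3) in met and 10.60 ± 0.40 (n = 6) in non-met, a difference of 0.62 (exact two-sided permutation P = 0.0476 from 84 splits, 1 of 24 such tests and not adjusted). Under RLE scaling the P of that exact test was 0.0714, and it was 0.0536 or 0.0714 whichever of the 9 libraries was left out. The voomLmFit difference was 0.40 ± 0.140 (SE, adjusted P = 0.432), and over 25 alternative settings the adjusted P ran from 0.0165 to 1.00, passing in 4. Leaving out 1 library put the fitted difference between 0.24 (without non-met 1) and 0.75 (without non-met 2). Within pools the met library exceeded its non-met partners in 3 of 3 pools, by 0.48, 0.24 and 0.38, each more than the 0.16 and 0.12 between non-met libraries of one pool. For *Thbs1* and *Mmrn1* met lay below the mean of its non-met partners in 3 of 3 pools. The share of all genes with such agreement was not counted. Across the 11 libraries the summed endothelial markers moved with *Sparc* (Pearson r = 0.805, as a description) and the summed granulocyte markers, higher in every non-met than in every met library although single markers such as *S100a9* overlapped, moved against it (r = -0.65). The part that these markers and the mitochondrial share had in the difference was not tested.

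*Sparcl1*, whose protein is found around mature vessels, measured 1089, 678 and 724 CPM in met. The lowest non-met library had 106, the median was 484 and the highest, non-met 4, had 664 CPM. The log2 means were 9.67 ± 0.37 in met and 8.53 ± 1.04 in non-met, a difference of 1.13 (P = 0.0833, exact permutation test), and with RLE scaling the groups overlapped. The voomLmFit difference was 0.75 ± 0.300 (SE, adjusted P = 0.566), and it was 0.49 without non-met 1 and 1.19 without non-met 2. Within pools met was higher by 1.14, 0.20 and 0.12. The differences of pools 3 and 4 were smaller than the 1.27 and 0.78 between non-met libraries of one pool.

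The other members gave no difference beyond their spread between met and non-met. *Mmrn2* had 347, 796 and 1298 CPM in met, the lowest and the highest of all 11 libraries being in that group, against 522 to 974 in non-met (difference 0.13, P = 0.786, exact permutation test; voomLmFit 0.69 ± 0.252, adjusted P = 0.480). Its met library was lower than the non-met partners in pools 2 and 3 (-0.97 and -0.29) and higher by 1.17 in pool 4. *Emilin1* had 249, 339 and 283 CPM in met against 213 to 599 in non-met, and *Fn1* 96.5, 298 and 132 against 79.1 to 375. *Mgp* ranged from 39.4 to 150 CPM in met and from 12.7 to 283 in non-met, and *Thbs1* from 0.88 to 58.7 and from 0.29 to 183, with met minus the mean of its non-met partners at -1.71, -0.13 and -1.63 in pools 2 to 4. *Mmrn1* was lower in the met library of 3 of 3 pools (differences -5.35, -0.17 and -0.50), while its non-met libraries ran from 0 to 142 CPM. The exact permutation P values of these last 5 genes lay between 0.345 and 0.964.

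**Figure D3:**
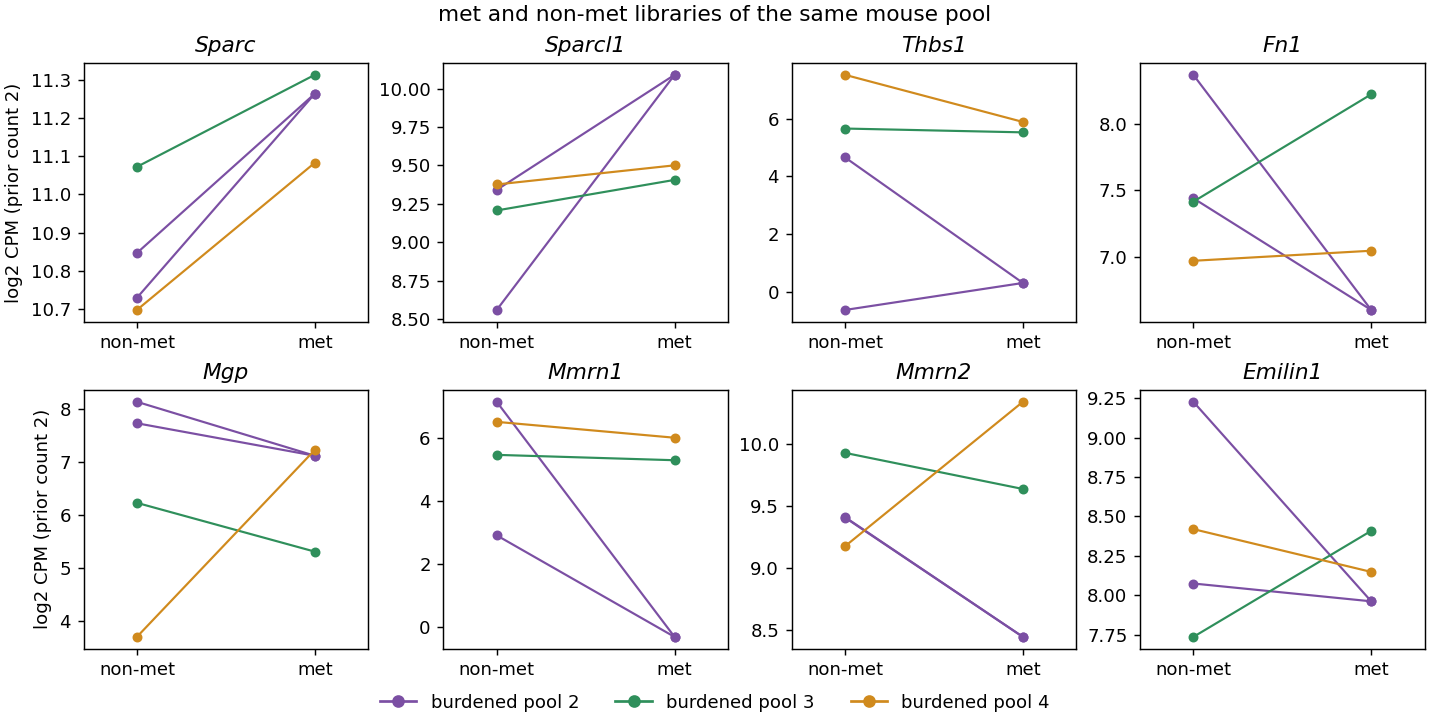
Log2 CPM of each gene in non-met and met libraries of the same mouse pool, joined by lines (pool 2 has 2 non-met libraries and 1 met library). All lines rise for *Sparc* and *Sparcl1*, and for the other 6 genes the lines differ in direction or, for *Mmrn1*, fall by very unequal amounts.

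The second comparison sets endothelium of infiltrated marrow against that of healthy bone. In mean CPM met was 1.49 times control for *Sparc*, 2.98 times for *Sparcl1* and 7.74 times for *Fn1*, while control was 9.23 times met for *Mmrn1*. voomLmFit called 2 of the 8 members, *Sparc* and *Sparcl1*, both higher in met, where it called 1.2% of all genes (0.686% higher). The quasi-likelihood test, DESeq2 and limma-trend called 0 members, against 0.0837%, 2.26% and 0.0753% of all genes, and at an unadjusted P under 0.05 voomLmFit had 4 members against 14.1% of all genes. Groups did not overlap in 3 members with met higher (8.43% of all genes) and in 1 with met lower (12.3%). The median fitted difference was 0.94 for the members and -0.09 for all genes, with 7 of 8 above 0. The exact test has 10 splits of 3 against 2 libraries here, so its smallest possible P is 0.1 and it cannot reach the threshold.

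*Sparcl1* measured 225 and 333 CPM in the controls, well under the 678 to 1089 CPM of met. For *Sparcl1*, control 1 carried 79.1% of the weight of the controls in the fit and met 3 carried 70.1% of that of met. The voomLmFit difference was 1.57 ± 0.237 (SE, adjusted P = 0.000243), the same as the unweighted difference of 1.57 (P = 0.1, exact permutation test), and it passed in 19 of 23 alternatives. The exceptions were the quasi-likelihood test (adjusted P = 0.886), DESeq2 (adjusted P = 0.486), limma-trend (adjusted P = 0.937) and the fit without control 1 (voomLmFit, adjusted P = 0.320). The summed endothelial markers were also higher in every met than in every control library and moved with *Sparcl1* (r = 0.626 over 11 libraries), and the summed stromal markers were lower in met. Their part in the difference was not tested.

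In the call for *Sparc* most weight lay on 1 library of each group, and the call was also lost without others. The *Sparc* controls measured 2077 and 1138 CPM, both below the lowest met library at 2169. The unweighted difference was 0.63 (P = 0.1, exact permutation test), and it ran from 0.20 to 1.07 when a library was left out. The voomLmFit difference was 0.06 ± 0.0105 (SE, adjusted P = 0.000571), in a fit where control 1 carried 99.9999% of the weight of the controls and met 3 carried 98.9% of that of met. Without control 1 the fitted difference was 0.98, and without control 2 it was 0.12. It was 0.29 without met 3 (voomLmFit, adjusted P = 0.159) and 0.12 without met 1 (voomLmFit, adjusted P = 0.0998). It was 0.06 without met 2 (voomLmFit, adjusted P = 0.212) and 0.13 without non-met 5 (voomLmFit, adjusted P = 0.160). It passed in 10 of 23 alternatives, and the quasi-likelihood test, DESeq2 and limma-trend gave adjusted P values of 0.945, 1.00 and 0.977.

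*Fn1* and *Mmrn1* did not overlap between met and control, in opposite directions, and neither passed the test. *Fn1*, the fibronectin gene, had 41.3 and 4.07 CPM in the controls and at least 96.5 CPM in met, a difference of 3.52 (P = 0.1, exact permutation test; voomLmFit 4.28 ± 1.96, adjusted P = 0.316; DESeq2 adjusted P = 0.0979). That difference was 1.91 without control 2 and 5.14 without control 1. *Mmrn1*, the platelet and endothelial multimerin, had 235 and 398 CPM in the controls and 0.44, 38.7 and 63.7 CPM in met, a difference of -4.60 (P = 0.2, exact permutation test; voomLmFit -3.97 ± 1.95, adjusted P = 0.364). It was -2.61 without met 1 and -5.78 without met 3. *Mmrn2*, at 679 and 566 CPM in the controls, lay within the range of met, with an unweighted difference of 0.20 (P = 0.8, exact permutation test). Its voomLmFit difference was 0.66 ± 0.173 (adjusted P = 0.0603) and passed in 6 of 23 alternatives, with 93.6% of the weight of the controls on control 1 and 67.3% of that of met on met 3. Without met 3 the fitted difference was -0.15 (voomLmFit, adjusted P = 0.909). *Emilin1* (273 and 89.2 CPM), *Mgp* (73.6 and 22.5) and *Thbs1* (31.7 and 0) in the controls overlapped met. The fitted difference of *Thbs1* was the highest of the 8, at 6.34 ± 3.07 (voomLmFit, adjusted P = 0.355), beside an unweighted 2.15, and it was -0.63 without control 2, the library with 0 reads.

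The third comparison sets the adjacent tumour-free marrow against healthy bone, and shares its controls with the second. *Fn1* was higher in all 6 non-met libraries than in both controls, 9.20 times in mean CPM, and *Mmrn1* was lower in all 6, with control 4.48 times non-met. voomLmFit called 0 of the 8 members, against 0.636% of all genes. At an unadjusted P under 0.05 it had 6 members, against 17% of all genes. DESeq2 called 1 member, *Fn1*, against 2.63% of all genes, while the quasi-likelihood test and limma-trend called 0, against 0.117% and 0.067%. Over all genes the DESeq2 calls were one-sided, 262 higher and 4 lower in non-met, where voomLmFit called 22 higher and 54 lower. Groups did not overlap in 1 member with non-met higher (1.26% of all genes) and in 1 with non-met lower (5.03%). The median fitted difference was 1.02 for the members and -0.33 for all genes.

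For *Fn1* the non-met libraries measured 79.1, 331, 170, 125, 375 and 173 CPM in the order 1 to 6. The difference from control was 3.75 (P = 0.0357, the smallest that the exact permutation test can give over 28 splits, not adjusted for the 24 tests). The fit gave 4.38 ± 1.95 (voomLmFit, adjusted P = 0.264) and DESeq2 3.37 (adjusted P = 0.00559). The 2 controls themselves differed 10.2-fold, and leaving one or the other out put the unweighted difference at 2.13 (without control 2) or 5.36 (without control 1). With 1 control left the exact permutation test cannot reach the threshold. The 8 arterial markers summed to 214 and 569 CPM in the controls, 560 to 1007 in non-met and 802 to 1066 in met, and moved with *Fn1* (r = 0.828 over 11 libraries). *Ly6a* gave 42.1% of that sum and did not overlap between control (100.015 and 114 CPM) and non-met (227 to 509), while *Efnb2* and *Sox17*, the next in level, overlapped and *Gja5* was detected in 2 libraries. Their part in the difference was not tested.

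For *Mmrn1* the non-met libraries measured 142, 141, 43.6, 90.5, 0 and 7.11 CPM. Non-met 1 and non-met 5, which share a pool, stood at 142 CPM and at 0 reads, so the largest gap lay within one pool of animals. The difference from control was -3.65 (P = 0.143, exact permutation test; voomLmFit -2.97 ± 1.205, adjusted P = 0.216), and it was -2.43 without non-met 5. *Mmrn1* is also known from lymphatic endothelium and platelets. Of 5 lymphatic markers *Lyve1*, *Pdpn*, *Ccl21a* and *Reln* were at 0 in all libraries and *Prox1* reached 21.0 CPM in met 2. Of 9 megakaryocyte and platelet markers *Gp9*, *Gp6* and *Treml1* were at 0 throughout, and the list summed to 0 to 31.3 CPM in control, 0 to 57.7 in non-met and 42.6 to 123 in met. The sinusoidal markers summed to 9226 to 13211 CPM in control, 7458 to 12436 in non-met and 6062 to 8746 in met, and moved with *Mmrn1* (r = 0.672 over 11 libraries). Within that list *Stab2* lay above both burdened groups in control (2371 and 3364 CPM against at most 1844). The others, *Flt4*, *Il6st*, *Stab1*, *Tfpi* and *Fgd5*, all reached higher in non-met than in control, though by little for *Stab1* (1811 against 1796 CPM) and *Tfpi* (3472 against 3400 CPM). The monocyte and macrophage markers, of which *Mrc1* gave 83.8% and *C1qa*, *C1qb*, *C1qc* and *Ccr2* were at 0, summed to 999 to 1562 CPM in control, 460 to 1398 in non-met and 354 to 877 in met, and also moved with *Mmrn1* (r = 0.564). In the controls *Csf1r* and *Adgre1* were at 0, *Cd68* and *Lyz2* reached 8.85 and 25.7 CPM, and *Mrc1* stood at 929 and 1526 CPM. That sum therefore follows mainly *Mrc1* and does not by itself show macrophages. The part of any of these cell types in the *Mmrn1* values was not tested.

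*Emilin1* had 417, 599, 213, 342, 471 and 269 CPM in non-met against 273 and 89.2 in control, a difference of 1.22 (P = 0.107, exact permutation test; voomLmFit 1.22 ± 0.555, adjusted P = 0.272). That difference was 0.41 without control 2 and 2.02 without control 1. *Mgp* had 95.2, 213, 75.0, 12.7, 151 and 283 CPM, 5 of 6 above both controls and non-met 4 below both (difference 1.25, P = 0.321, exact permutation test). The *Mgp* difference was 0.40 without control 2, 2.09 without control 1 and 1.83 without non-met 4 (P = 0.0476 for the last, exact permutation test). Leaving out non-met 4, the only non-met library below the controls, separates the groups, and that P is the smallest the test can then give. *Thbs1* (voomLmFit 5.83 ± 2.73, adjusted P = 0.283; unweighted difference 1.98) had 41.8, 0.29, 50.1, 183, 0.53 and 24.9 CPM and the controls 31.7 and 0, so each group held libraries with 0 to 2 reads beside libraries with 28 to 648. The 183 CPM of non-met 4, the shallowest library, came from 101 reads. *Sparc* and *Sparcl1* were among the 6 members at an unadjusted P under 0.05 without a call. The fit put *Sparc* at -0.34 ± 0.140 (voomLmFit, adjusted P = 0.224), while its unweighted difference was 0.01 (P = 1, exact permutation test), and library size scaling called it lower (-0.48, voomLmFit, adjusted P = 0.0272). *Sparcl1* was at 0.81 ± 0.343 (voomLmFit, adjusted P = 0.236), with an unweighted difference of 0.44 (P = 0.643, exact permutation test). *Mmrn2* was at -0.03 ± 0.207 (voomLmFit, adjusted P = 0.923), with an unweighted difference of 0.06 (P = 0.857, exact permutation test).

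**Figure D4:**
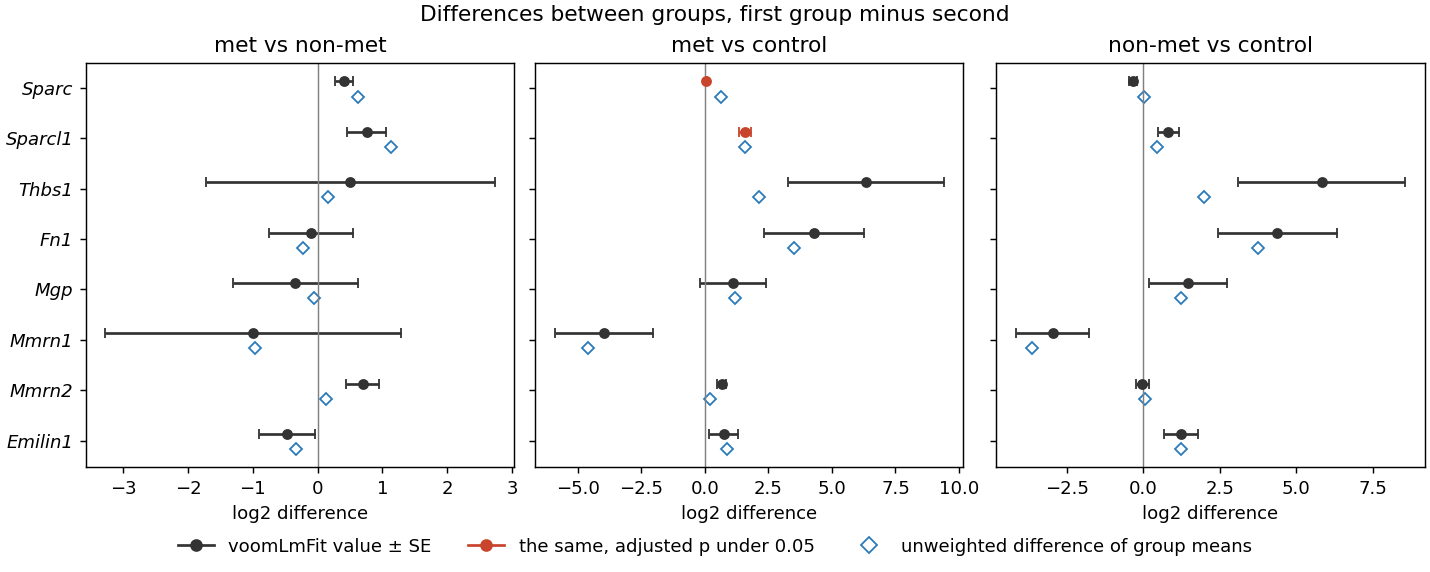
Log2 differences of the 8 genes in the 3 comparisons, first group minus second. Filled points are voomLmFit values with their SE (red where the adjusted P was under 0.05), and open diamonds are unweighted differences of the group means. *Sparc* in met vs control is called at a fitted value near 0 while its unweighted difference is 0.63, and in both comparisons with control *Fn1* lies far above 0 and *Mmrn1* far below it, with wide errors.

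With only the 7 libraries whose *Krt8* and *Krt18* sum was at least 6.54 CPM (met 1 to 3 and non-met 3 to 6), a level read from the data since all 11 libraries held some of these reads, voomLmFit called no member between met and non-met. That level is the value of met 3, so the cut kept every met library by construction, and the fit has fewer libraries than the main one. *Sparc* differed by 0.20 (adjusted P = 0.913) and *Sparcl1* by 0.72 (adjusted P = 0.842). Depth and keratin reads were not tested as a source of either difference.

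Across libraries, the genes whose pattern was most like that of a member were found among about 3565 tested genes of mean log2 CPM of at least 5, by Pearson correlation over 11 libraries that also share depth and RNA quality. *Sparc* lay closest to *Hspg2* (r = 0.963), the perlecan gene of the basement membrane, then *Man1c1* (0.939) and *Cdh5* (0.901), the endothelial cadherin. *Hspg2* had 3748 to 4228 CPM in met, 924 to 3738 in non-met and 1104 and 2459 in control. Its likeness to *Sparc* across groups follows from its choice by correlation and is not separate evidence. *Sparcl1* lay closest to *Raver1* (0.897), *Rpl4* (0.894) and *Pitpnb* (0.890). *Fn1* lay closest to *Abca1* (0.930), the cholesterol exporter, *Ppfibp1* (0.924) and *Cdkn2aipnl* (0.917). *Mmrn1* lay closest to *Ebf3* (0.967), *Adgrg3* (0.933) and *Ccar2* (0.930), and *Emilin1* to *Parp14* (0.909), *Nsd2* (0.902) and *Cpne1* (0.879). *Mgp* had *Stat2* (0.903), *Hint1* (0.893) and *Fam89b* (0.879) nearest. The likeness was weakest for *Thbs1*, with *Sh3pxd2a* (0.841), *Ctsd* (0.840) and *Ephb4* (0.827), and for *Mmrn2*, with *Psap* (0.820), *Epas1* (0.806) and *Map1lc3b* (0.801). Among the members themselves the highest values were 0.831 for *Fn1* with *Emilin1* and 0.752 for *Sparc* with *Sparcl1*, and the lowest was -0.49 for *Fn1* with *Mmrn1*.

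Other matrix glycoproteins were counted in the same fits. Of 48 listed, 36 were tested, and voomLmFit called 1 higher and 0 lower in met vs non-met, 1 and 1 in met vs control, and 0 and 1 in non-met vs control, where 0.427%, 1.2% and 0.636% of all genes were called. *Igfbp7*, a vascular matrix protein that binds growth factors, was the gene called higher in met against both groups (0.79 ± 0.115, adjusted P = 0.000366 against non-met and 0.94 ± 0.0460, adjusted P = 4.16e-13 against control, voomLmFit). Its met libraries measured 2052 to 3747 CPM, overlapping the 1478 to 4026 of non-met (unweighted difference 0.35, P = 0.345, exact permutation test) and above the 1621 and 1962 of control (unweighted difference 0.62, P = 0.2). *Tnc*, the matricellular tenascin C, was lower in met (23.4 to 218 CPM) than in control (494 and 520) (-3.24 ± 0.802, adjusted P = 0.0450). *Esm1*, a proteoglycan of tip cells, was lower in non-met than in control (0 to 93.3 against 124 and 214 CPM, adjusted P = 0.0415, voomLmFit). *Pxdn*, the peroxidase that crosslinks collagen IV, was the other most abundant gene of the list and was not called. The list's medians were 0.17, 0.08 and -0.08 (-0.26 with genes at the floor set to their bound), beside 0.08, -0.09 and -0.33 for all genes.

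Receptors and processing partners were tested for all 24 genes listed, with 1 higher and 0 lower in met vs non-met, 3 and 2 in met vs control, and 1 and 2 in non-met vs control, beside the same shares of all genes (0.427%, 1.2% and 0.636%). *Cd93*, a receptor of MMRN2, was higher in met (1511 to 1719 CPM) than in control (348 and 993) by 0.80 ± 0.169 (voomLmFit, adjusted P = 0.0115; unweighted difference 1.44, P = 0.1, exact permutation test) and than in non-met (666 to 1543) by 0.60 (adjusted P = 0.0496; unweighted difference 0.65, P = 0.0595, exact permutation test). *Itgb1*, the beta subunit of the main fibronectin receptor, measured 1886 to 2190 CPM in met, 912 to 2164 in non-met and 791 and 896 in control, and was called against control in met (1.10, adjusted P = 4.11e-15, voomLmFit) and in non-met (0.68, adjusted P = 0.00163). Its unweighted differences from control were 1.24 in met (P = 0.1, exact permutation test) and 0.68 in non-met (P = 0.107, exact permutation test). *Tgm2*, a transglutaminase that crosslinks fibronectin, was higher in met than in control (1006 to 1347 against 648 and 724 CPM, adjusted P = 9.35e-05, voomLmFit; unweighted difference 0.74, P = 0.1, exact permutation test). *Stab1*, the scavenger receptor that clears SPARC, was called lower at -0.39 (adjusted P = 0.000204, voomLmFit), but its unweighted difference was -0.01 and its groups overlapped.

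Of the 5 lysyl oxidases listed, enzymes that crosslink collagen and elastin, *Lox* and *Loxl1* were called. *Loxl1* measured 83.2 and 108 CPM in control and had 0 reads in the 3 met libraries, at least 128-fold lower with the floor of 3 reads per library (adjusted P = 0.00452, voomLmFit), and 0 to 19.3 CPM in non-met (adjusted P = 0.0120). *Lox* measured 53.2 and 250 CPM in control and 0 to 21.1 in non-met (adjusted P = 0.0117, voomLmFit), and 0.11 to 56.9 in met, where it was not called. *Loxl2*, *Loxl3* and *Loxl4* were not called, and not all lay below control: *Loxl2* had fitted differences of 0.92 in met and 1.37 in non-met, and *Loxl4* had 0 reads in both controls, 0 to 55.3 CPM in met and 0 to 40.9 in non-met. The stromal markers, at 4260 and 10942 CPM in control, summed above all met libraries and, for control 1, within the range of non-met. *Cxcl12* made up most of that sum, and the other markers differed in direction. At most, *Lepr* reached 148 CPM in met against 979 in control, *Col1a2* 184 against 490 and *Pdgfrb* 116 against 285, whereas *Acta2* reached 320 against 5.38, *Col3a1* 478 against 159 and *Rgs5* 141 against 73.2. Their part in the *Lox* and *Loxl1* values was not tested. Medians of the list were 0.36 (0.38 with bounds), 0.00 and 0.04.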

How the data were processed

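CD31hi EMCNhi endothelial cells of 2 control, 6 non-met and 3 met samples were profiled from small cell numbers with the Clontech SMART-Seq v4 low input kit. Alignment to mm10 (Rsubread) and counting per gene (featureCounts) were done by the authors. The deposited values are raw counts per Entrez gene, identical in the table of the whole series and in 11 tables of single libraries. The authors removed a sample of low mapping.

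Symbols came from RefSeq GRCm38.p6 for 25275 of 27179 rows and from GENCODE for 18. Unnamed (1886), ribosomal (36) and predicted (1794) rows, holding 1.94% to 15.7% of a library's counts, were left out. Genes were kept with filterByExpr (minimum count 10, minimum total 15). TMM scaling and voomLmFit with sample weights (edgeR 4.0.16, limma 3.58.1, R 4.3.3) were applied to 1 model of 3 groups, following the test the authors state, with the Benjamini-Hochberg threshold at 0.05. Log2 CPM used a prior count of 2, and single values were compared by exact two-sided permutation of the difference in means. RPKM used counted exon length. Alternatives were DESeq2 1.42.0, the quasi-likelihood test of edgeR, limma-trend, no sample weights, RLE or library size scaling, other filters, blocks for mouse pool, summed pools, 2 groups only, 7 libraries and each library left out. The scripts were tested on simulated data.

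The members and lists were chosen with earlier results of these data known. Named genes are the 8 members, listed genes past the threshold (or, with fewer than 2, also the 2 most abundant) and the 3 nearest genes per member. Outside this rule *Loxl2*, *Loxl3*, *Loxl4*, *Emilin2* and markers of cell types are also named. Pools pair libraries of the same animals by the labels, and deviations of paired libraries from their group means correlated at -0.0204 to 0.0218 (Spearman, across genes, 4 pairs).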

Additional observations from a re-analysis of the deposited data

How the results depend on the processing

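Counts of members called in met vs non-met changed from 0 to 1 (*Sparc*) with library size scaling and with only the 2 groups, and ranged from 0 to 1 when a library was left out (1 without control 1 or control 2). In met vs control the 2 calls became 0 with the quasi-likelihood test, DESeq2 and limma-trend, 1 with library size scaling, a mean of at least 5 CPM, summed pools and only the 2 groups, 3 (with *Mmrn2*) without sample weights, with RLE and without the low-count filter, and 0 to 3 when a library was left out (0 without control 1; 1 without met 2, met 3 or non-met 5). Without met 1 the met vs control count stayed at 2, but with *Mmrn2* called in place of *Sparc*. In non-met vs control 0 became 1 with DESeq2 (*Fn1*) and with library size scaling (*Sparc*, lower), and stayed 0 when a met or non-met library was left out.

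Reversed fitted differences, met vs non-met, were for *Thbs1* -0.50 with the quasi-likelihood test, -0.73 with DESeq2, -1.18 with the fixed replicate block and -0.31 in the 7 libraries, for *Fn1* 0.046 and *Mmrn2* -0.20 with the fixed replicate block, and in the 7 libraries *Mgp* 0.17, *Mmrn1* 0.49 and *Emilin1* 0.036. For non-met vs control, *Sparc* was 0.075 with DESeq2 and 0.0085 with limma-trend, and *Mmrn2* 0.092 with the quasi-likelihood test, 0.16 with DESeq2, 0.065 with limma-trend, 0.073 with RLE and 0.085 with summed pools. Reversed log2 CPM differences were -0.027 for *Mmrn2*, met vs non-met, with RLE, and -0.19 (*Sparc*) and -0.14 (*Mmrn2*), non-met vs control, with library size scaling.

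When 1 library was left out, fitted and log2 CPM differences that changed sign ranged, for met vs non-met, from -1.77 to 1.87 and -0.82 to 1.97 (*Thbs1*), -0.62 to 0.36 and -0.69 to 0.12 (*Fn1*), -0.75 to 0.38 and -0.63 to 0.57 (*Mgp*), -3.63 to 0.71 and -2.18 to 1.03 (*Mmrn1*) and -0.11 to 0.82 and -0.30 to 0.65 (*Mmrn2*). For met vs control they were -0.63 to 7.87 and -1.10 to 5.39 (*Thbs1*) and -0.15 to 0.98 and -0.24 to 0.71 (*Mmrn2*). For non-met vs control they were -0.65 to 0.56 and -0.43 to 0.44 (*Sparc*), -1.16 to 7.29 and -1.26 to 5.22 (*Thbs1*) and -0.13 to 0.21 and -0.067 to 0.20 (*Mmrn2*). The cause was not tested for any of these.

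The pairing by mouse pool could be fitted as a fixed replicate block only for met vs non-met, where 0 members and 27 of 9432 genes were called; a random block left the member counts at 0, 2 and 0. Genes called over the whole table in the 3 comparisons (51, 143 and 76) were 16, 10 and 14 with the quasi-likelihood test, 324, 228 and 266 with DESeq2, 2, 9 and 8 with limma-trend, 24, 55 and 33 with summed pools, 63, 274 and 140 without sample weights, and 79, 429 and 184 without the low-count filter. Library size scaling called 61, 136 and 160. The share of calls that were higher, 66.7%, 57.3% and 28.9% with TMM, was 53.3%, 54.6% and 38.6% with RLE and 73.8%, 46.3% and 13.8% with library size scaling. The median of all genes, 0.08, -0.09 and -0.33 with TMM, was -0.09, -0.17 and -0.24 with RLE and 0.14, -0.23 and -0.54 with library size scaling. Levels under 3 reads, 0.154 to 4.09 CPM, could not be detected. Whether depth bears on the libraries of *Thbs1* and *Mmrn1* with 0 to 2 reads was not tested, and *Thbs1* had 101 reads in the shallowest library.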

Other observations

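*Emilin2*, the closest relative of *Emilin1* among the listed genes, was chosen after its values were seen. It had 446, 143 and 97 reads in met 1 to 3 (196, 27.1 and 11.1 CPM), 0 reads in all 6 non-met libraries, and 91 and 0 reads in the controls. The difference between met and non-met was not called (voomLmFit, adjusted P = 0.134).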
